A study of Drosophila melanogaster with 5 samples.

Results

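The genes described here encode cuticle proteins of Drosophila melanogaster, measured by RNA sequencing in dissected indirect flight muscle of pupae. Members were chosen by symbol alone: every gene whose symbol begins with Cpr and a digit, with Ccp84 or with Twdl was taken, and the symbols were joined to the exon counts by FlyBase identifier. This gave 103 of the 17494 counted genes, of which 70 are Cpr, 7 Ccp84 and 26 Twdl genes. All 103 had the same span in a current dm6 annotation, where 102 are protein coding and TwdlU is a pseudogene. Both groups were staged to 48 h after puparium formation (APF) at 25 °C, and all pupae carried Mef2-GAL4, a driver that is active in all muscles and is not limited to flight muscle. Per the study, this driver can also act in some neurons, and Mef2 itself is expressed in the fat body too. The 3 WT libraries, replicates 1, 2 and 3, came from pupae with the driver and no RNAi transgene. The 2 M1BP RNAi libraries, replicates 2 and 3, came from pupae that also carried a UAS hairpin against M1BP, which per the methods of the study was the weaker of its RNAi lines. Each library pooled the dorsolongitudinal muscles of 6 to 8 pupae, whose sex was not given.

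The insect cuticle is a layered extracellular matrix that epidermal and tracheal cells secrete on their apical side, and its procuticle consists of chitin fibres held in a matrix of structural proteins. Cpr proteins (cuticular proteins with the Rebers and Riddiford domain) bind chitin through that domain, and the letters and digits of each symbol give the cytological position of the gene. Ccp84 genes form a cluster of the same class, and Tweedle (Twdl) proteins form a separate family of cuticle proteins, first named for a mutant with a short, stout body. Muscle makes no cuticle, but each flight muscle is anchored to the thoracic cuticle through epidermal tendon cells, and tracheal branches, which are lined with cuticle, grow into it. During the pupal stage the epidermis sheds the pupal cuticle and builds the adult one.

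Libraries held 41676901 to 57514444 counts. M1BP, the target of the hairpin, had a mean of 660 normalised counts in the WT libraries (SD 16.2, n = 3) and of 433 after M1BP RNAi (SD 32.3, n = 2), where a normalised count is a count divided by the DESeq2 size factor of its library. It fell by 0.61 on the log2 scale (SE 0.136, DESeq2 adjusted p = 0.000104), and its call was lost when any 1 of the 5 libraries was left out. All 9 flight muscle markers (Mhc, Act88F, fln, TpnC4, sls, Mef2, up, wupA and salm) had a mean of at least 100 normalised counts, and their summed level ranged from 1835560 to 2845600 normalised counts. The methods of the study name triplicate RNA preparations and, as a general rule, 3 independent biological replicates, while M1BP RNAi has 2 libraries here. The labels do not say that replicates came from separate cultures or crosses, so p-values measure only the spread between these samples.

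Of the 103 cuticle protein genes, 50 had at least 10 counts in at least 1 library, or 48.5% of them, against 67.0% of all counted genes. A further 29 had between 1 and 9 counts at their highest, and 24 had no count in any library, which allows up to a level of 0.0522 to 0.0720 CPM in a single library (3 counts, counting error only). Reads of 22 members reached 10 counts in all 5 libraries. Detection differed between families: 38 of 70 Cpr, 10 of 26 Twdl and 2 of 7 Ccp84 genes had at least 10 counts in a library. The Twdl family also held 13 of the 24 genes without a count, beside 10 Cpr genes and Ccp84Aa.

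A mean of at least 100 normalised counts over the 5 libraries was reached by 18 members, 14 of them with a mean of at least 1000. These 18 are 16 Cpr genes and 2 Tweedle genes, TwdlT and TwdlE. Per kilobase of exon, the highest mean levels were those of Cpr66Cb with 34959, Cpr66D with 19630 and TwdlT with 14107 normalised counts per kilobase. Their ranges over libraries overlapped, from 21959 to 62045 per kilobase for Cpr66Cb, from 12517 to 33851 for Cpr66D and from 5305 to 22042 for TwdlT. The next members by level per kilobase were Cpr76Bc with 3443 and Cpr50Ca with 3144, so these first 3 genes stood apart from the rest of the family in their means. By library, they held 61.2% to 68.4% of the summed normalised counts of all 103 members.

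Values of single genes follow in normalised counts, in the order WT 1, WT 2 and WT 3, then M1BP RNAi 2 and M1BP RNAi 3. Cpr66Cb (FBgn0035875, 3L, 8336672 to 8338595, dm6) had 62107, 39003 and 25651 in WT and 21981 and 26230 in M1BP RNAi. TwdlT (FBgn0029170, 3R, 27049220 to 27051004) had 33399, 35422 and 8525 in WT and 11750 and 24256 in M1BP RNAi. Cpr66D (FBgn0052029, 3L, 8640439 to 8643584) had 37371, 21548 and 16284 in WT and 13819 and 19336 in M1BP RNAi. In all 3 genes WT 1 and WT 2 were above both M1BP RNAi libraries, but WT 3 lay between the M1BP RNAi libraries for Cpr66Cb and Cpr66D and under both for TwdlT, so the groups overlapped.

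Other members had their high libraries elsewhere. Cpr50Ca (FBgn0033867, 2R, 13769915 to 13787802) had 6478, 26000 and 8057 in WT and 9494 and 3838 in M1BP RNAi, with WT 2 far above the other libraries. Cpr76Bd (FBgn0036881, 3L, 19532743 to 19538289) had 16888, 2283 and 4274 in WT and 2689 and 9499 in M1BP RNAi. Cpr92F (FBgn0038819, 3R, 20669571 to 20672821) had 7758, 554 and 719 in WT and 610 and 5719 in M1BP RNAi. In these last 2 genes, 1 library of each group, WT 1 and M1BP RNAi 3, was high while the other 3 were low. Cpr76Bc (FBgn0036880, 3L, 19520945 to 19527272) ran the other way, with 614, 17003 and 5169 in WT and 7861 and 997 in M1BP RNAi.

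The 10 genes with the highest mean also include Cpr100A, Cpr49Ah and Cpr97Ea. Cpr100A had 6903, 3059 and 2326 in WT and 2323 and 4088 in M1BP RNAi. Cpr49Ah had 4380, 2247 and 2702 against 1854 and 3289, and Cpr97Ea had 3935, 2009 and 1109 against 911 and 2954. Each of them was again highest in WT 1 and second highest in M1BP RNAi 3, with a smaller range than Cpr92F.

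The other 8 genes with a mean of at least 100, apart from TwdlE, were named after their values were seen. Cpr51A was the only one of the 18 in which the groups did not overlap, with 2477, 1893 and 1470 in WT and 1005 and 1309 in M1BP RNAi. Cpr97Eb had 2413, 407 and 511 against 319 and 2725, and Cpr62Bc had 3060, 288 and 672 against 345 and 1530. Cpr64Aa had 1948, 539 and 497 against 523 and 1851, a pattern with 2 levels that Cpr97Eb shared: WT 1 and M1BP RNAi 3 were close to each other, and the other 3 libraries lay together at a lower level. Cpr30B had 1127, 556 and 425 against 397 and 1145. TwdlE, like TwdlT, was highest in WT 2 and lowest in WT 3, with 1143, 1888 and 347 against 435 and 692. Cpr30F, with 283, 337 and 72.4 against 91.3 and 630, was highest in M1BP RNAi 3. Cpr57A, with 481, 386 and 228 against 238 and 233, cannot be told from Obp57d, an odorant-binding protein gene on the same strand that holds all of its 1488 exon bases and had the same mean count of 313.

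**Figure D1:**
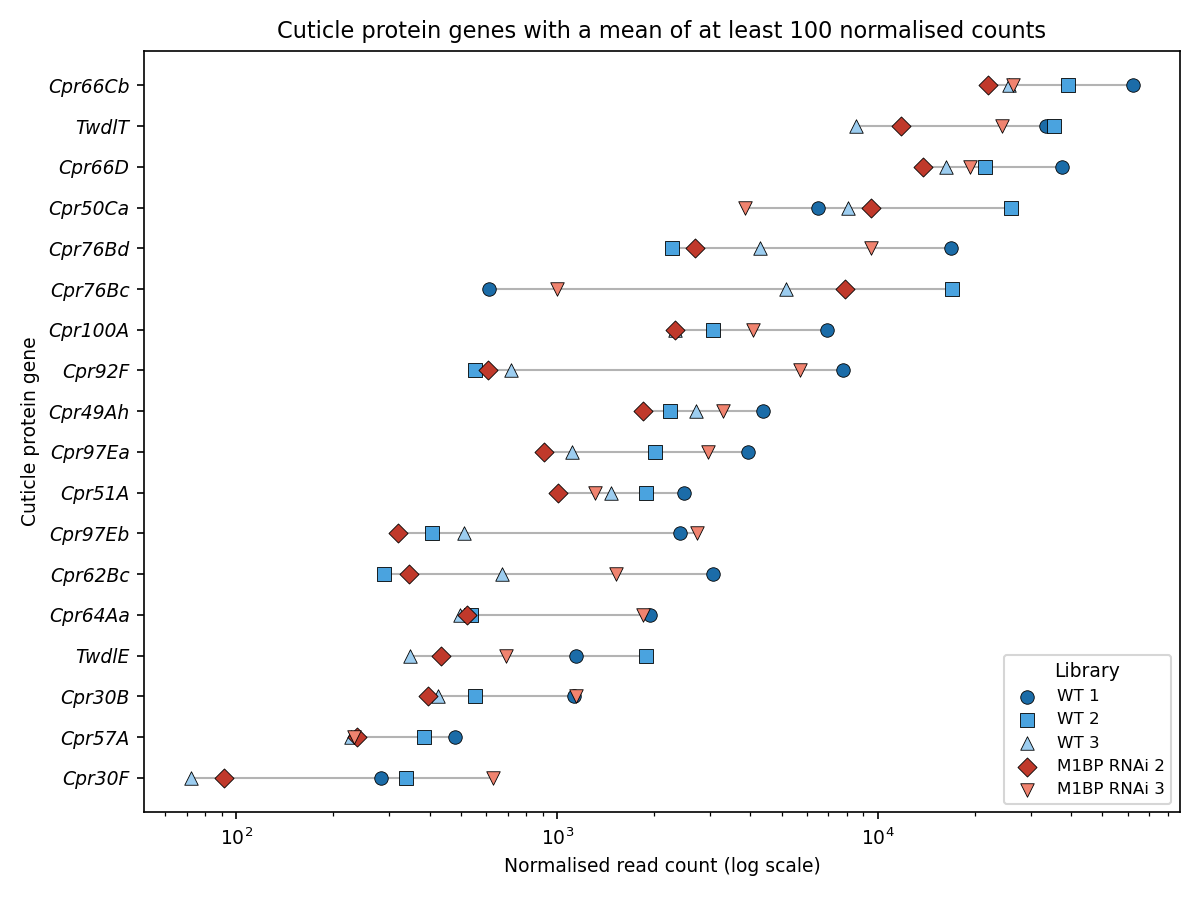
Normalised read count (log scale, horizontal) of the 18 cuticle protein genes with a mean of at least 100, each point 1 library, with WT in blue and M1BP RNAi in red. The WT points alone span most of each line, and in 9 genes the 2 rightmost points are WT 1 and M1BP RNAi 3.

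The other 32 detected members had means under 100 normalised counts, and several were counted in only some libraries. In 11 of them at least 1 WT library had no count, and in 8 of them WT 3 had none. The share of all genes at that level with such zeros was not determined, and detection needed only 1 library. Cpr49Ae had 208, 179 and 0 in WT and 18.3 and 8.84 in M1BP RNAi. Cpr64Ac had 28.8, 308 and 0 in WT and 10.2 and 30.4 in M1BP RNAi. Cpr56F had 276, 36.9 and 1.06 in WT and 15.3 and 22.6 in M1BP RNAi. Each of these 3 genes had its highest value in WT 1 or WT 2 and at most 1 count in WT 3. They were picked for a large ratio between libraries.

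Cpr92A had 81.9, 10.7 and 0 in WT and 2.92 and 118 in M1BP RNAi, the same 2 high libraries as Cpr92F. Cpr47Ec had 3.32, 106 and 64.9 in WT and 108 and 15.7 in M1BP RNAi, with WT 1 the lowest as for Cpr76Bc. Among Tweedle genes, TwdlG had 158, 86.9 and 101 in WT and 52.6 and 95.2 in M1BP RNAi, a narrower range than TwdlV, which had 125 in WT 1 and 2.19 to 13.7 elsewhere. The Ccp84 cluster was close to absent: its best-counted members were Ccp84Ad, with 2 to 26 counts per library, Ccp84Ag, with 1 to 12, and Ccp84Ac, with at most 2.

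Of the 32 detected members under 100, 4 had groups that did not overlap, against 37.8% of all genes with a mean under 100 and at least 10 counts in a library. Twdlbeta had 196, 75.0 and 86.2 in WT and 46.0 and 53.0 in M1BP RNAi. Cpr49Ac was higher in M1BP RNAi, with 41.0, 22.6 and 7.45 in WT and 56.3 and 63.8 in M1BP RNAi. The same held for Cpr76Ba, with 18.8, 0 and 0 in WT and 23.4 and 135 in M1BP RNAi. Twdlalpha had 25 counts in M1BP RNAi 2, 1 in M1BP RNAi 3 and none in WT, and shares 72 exon bases with CG32568 on its strand.

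M1BP RNAi 2, where Twdlalpha had nearly all its counts and TwdlP its only 8, was also the library with counts of testis genes. The 10 testis markers (bam, can, mia, betaTub85D, ocn, dj, Mst84Da, Mst84Db, Mst84Dc and Mst84Dd) summed to 67.9 to 133 normalised counts in WT, 4453 in M1BP RNAi 2 and 167 in M1BP RNAi 3. Of these markers 9 had at least 10 counts in a library, and none was at 0 throughout. DESeq2 called 2 of them, ocn and Mst84Da, higher in M1BP RNAi, and neither was called without M1BP RNAi 2. Their part in the counts of both Tweedle genes was not tested.

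**Figure D2:**
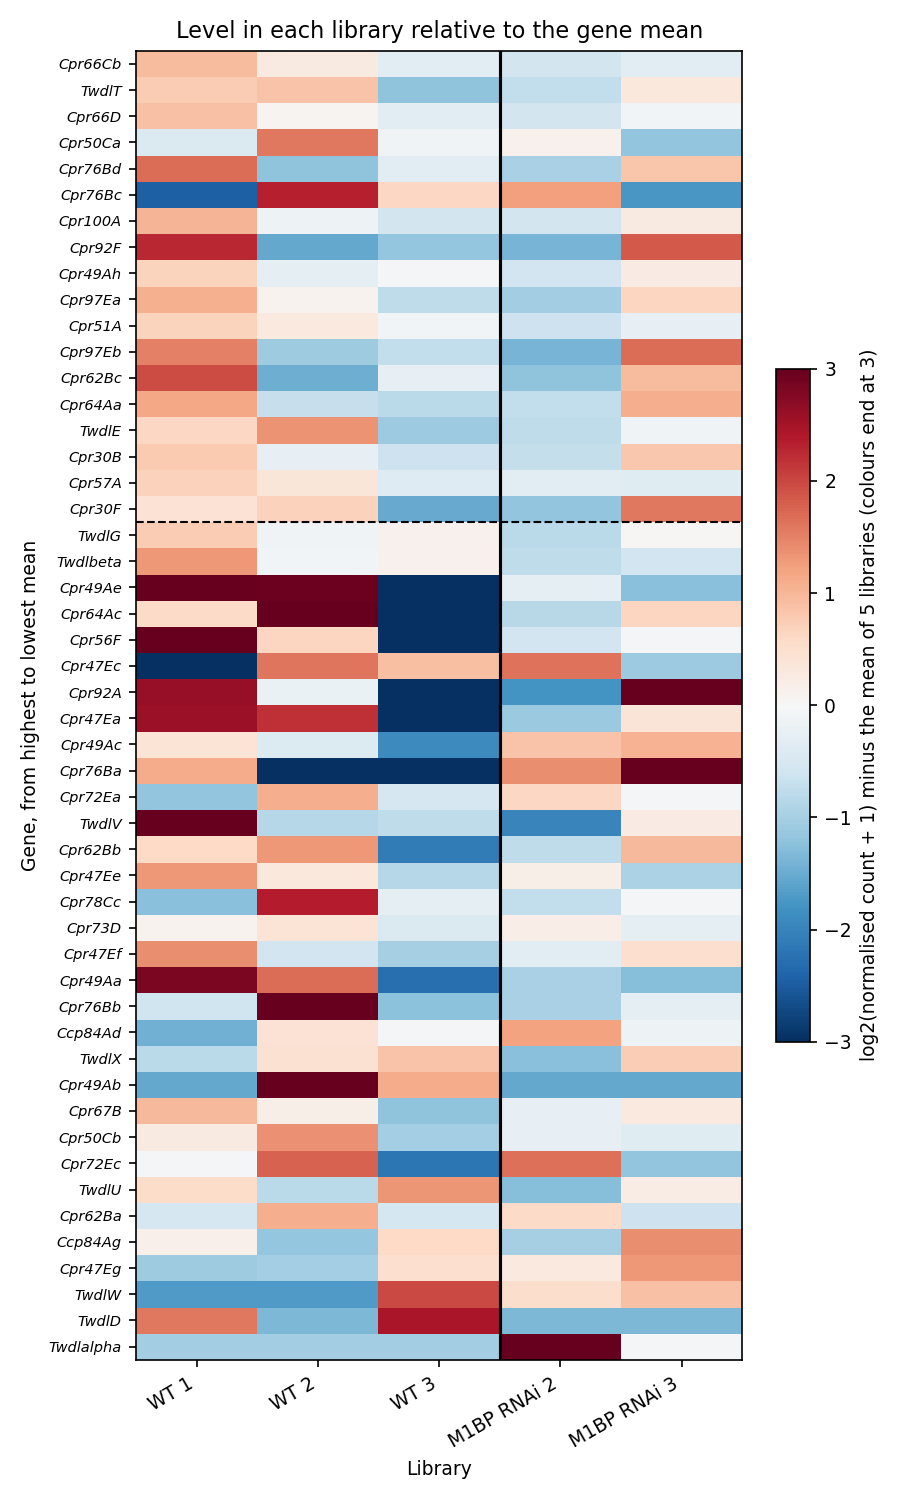
Level of the 50 detected cuticle protein genes in each library (columns; the solid line separates WT from M1BP RNAi), as log2(normalised count + 1) minus the gene's mean over 5 libraries, with rows ordered by mean and a dashed line under the 18 genes with a mean of at least 100. Red and blue change from column to column within each group, and 8 genes under the dashed line have no count in WT 3.

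No cuticle protein gene was called between M1BP RNAi and WT. The call was an adjusted p of at most 0.001 with a fold change of at least 1.5 in the DESeq2 Wald test, and it was met by 0 of the 47 members that received an adjusted p, against 6.75% of all 11282 genes tested (3.78% higher and 2.98% lower in M1BP RNAi). At an unadjusted p under 0.05 in the same test there were 3 of 47 members, Cpr66Cb, Cpr51A and Twdlbeta, all lower in M1BP RNAi, against 35.7% of all genes. By the quasi-likelihood test of edgeR under the same call rule the count was 0 of 38 members against 0.0814% of all genes, with 1 of 38 against 31.1% at an unadjusted p under 0.05. At an edgeR adjusted p of at most 0.05 it was 0 of 38 against 11.3%.

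The member nearest to a call was Cpr51A, with a WT mean of 1947 (SD 506, n = 3) and an M1BP RNAi mean of 1157 (SD 215, n = 2). Its log2 fold change was -0.75 (95% interval -1.30 to -0.20, DESeq2 adjusted p = 0.0333), and it was the only 1 of 47 members past an adjusted p of 0.05, which 24.4% of all genes passed. Cpr66Cb had a log2 fold change of -0.81 (95% interval -1.52 to -0.10, DESeq2 adjusted p = 0.0869) and Cpr66D one of -0.60 (95% interval -1.32 to 0.13, adjusted p = 0.239). TwdlT had a log2 fold change of -0.52 with an interval of -1.91 to 0.88, and Cpr50Ca of -1.02 with -2.93 to 0.89. Among the 18 genes the interval was widest in Cpr76Bc, from -3.92 to 2.36, and Cpr92F, from -3.16 to 3.30, where a change of several fold in either direction was not detectable with these libraries.

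**Figure D3:**
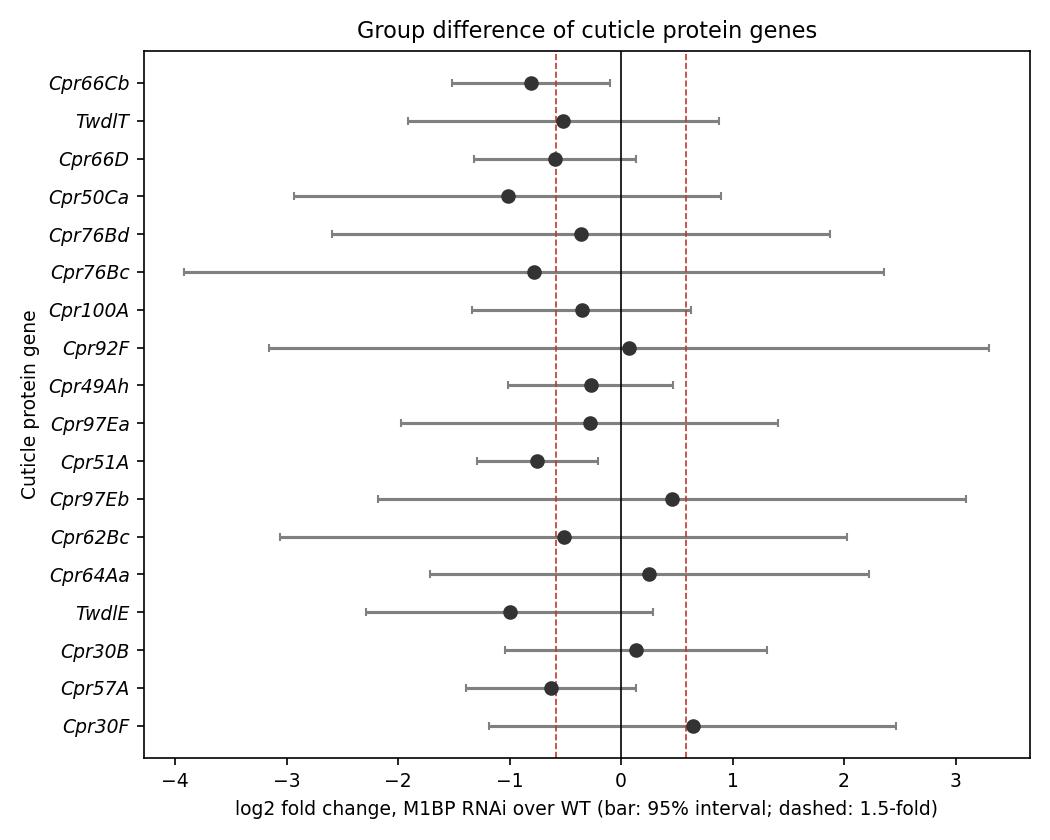
Log2 fold change of M1BP RNAi over WT for the 18 cuticle protein genes with a mean of at least 100 (points) with its 95% interval from DESeq2 (bars), the dashed lines marking a 1.5-fold change. Most bars cross 0, and the exceptions are Cpr66Cb and Cpr51A, which reach adjusted p of 0.0869 and 0.0333.

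Calls depended on single libraries. Without WT 1, Cpr76Ba was called higher in M1BP RNAi (log2 fold change 8.58, DESeq2 adjusted p = 0.000605), a value set against 2 WT libraries with no count. Without WT 3, Cpr66Cb and Cpr49Ae were called lower, with log2 fold changes of -1.07 and -3.82 and adjusted p of 0.000430 and 1.99e-08. Leaving out WT 2, M1BP RNAi 2 or M1BP RNAi 3 gave no call among the members.

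In direction, 34 of the 47 tested members had a negative log2 fold change, with a median of -0.52 against 0.02 over all genes tested. Of the 18 with a mean of at least 100, 13 had a lower mean in M1BP RNAi, against 54.6% of all 7589 genes at that level, and 1 of 18, Cpr50Ca, had group means at least 2 times apart, against 7.59%. Scaling to CPM (counts relative to the library total) in place of size factors moved the median log2 ratio of all genes at that level by 0.27, from -0.05 to 0.22, and that of the 18 members from -0.44 to -0.22. The number with a lower mean in M1BP RNAi was 13 of 18 on either scale. Only 1 of the 18, Cpr51A, had groups that did not overlap, against 53.7% of all genes.

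The libraries of one group differed widely. Among the 18 genes, 16 differed at least 2 times between the highest and the lowest WT library, against 7.92% of all genes with a mean of at least 100, and 11 differed at least 2 times between the M1BP RNAi libraries, against 4.12%. The median ratio of the highest to the lowest WT library was 3.97, from 1.69 in Cpr51A to 27.7 in Cpr76Bc. Over all 5 libraries the median ratio was 4.24, against 1.44 for all genes at that level. The largest ratio of group means was 2.03. Group means average libraries, so this value is not comparable with a ratio of the highest to the lowest single library. The dispersion that DESeq2 estimated per gene was at least 10 times the trend for genes of that mean in 13 of 18 members, against 2.86% of all genes, with a median of 17.9 times and a highest value of 106 times in Cpr76Bc. The standard error of the log2 fold change followed, with a median of 0.788 in the 18 genes and 0.165 in all genes at that level.

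**Figure D4:**
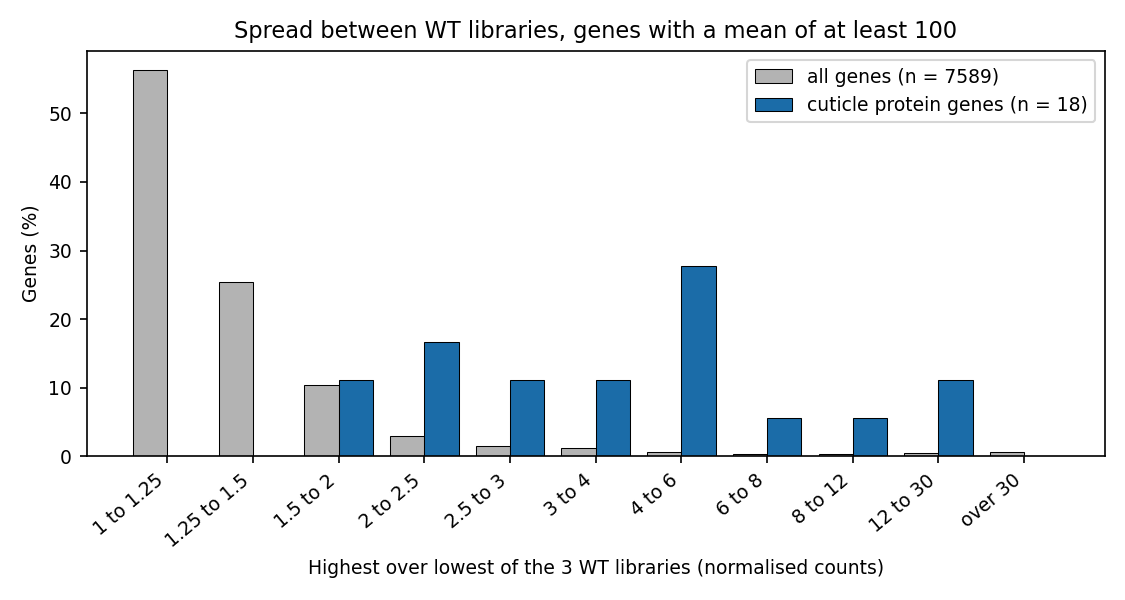
Share of genes (%) by the ratio of the highest to the lowest of the 3 WT libraries, for all 7589 genes with a mean of at least 100 (grey) and the 18 cuticle protein genes among them (blue). Most genes lie under a ratio of 1.5, where there is no cuticle protein gene, and 16 of the 18 lie at 2 or above.

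The high libraries recurred from gene to gene. WT 1 and M1BP RNAi 3 were the 2 highest libraries in 9 of the 18 genes (Cpr76Bd, Cpr100A, Cpr92F, Cpr49Ah, Cpr97Ea, Cpr97Eb, Cpr62Bc, Cpr64Aa and Cpr30B), against 3.99% of all genes with a mean of at least 100. WT 2 and M1BP RNAi 2 were the 2 highest in Cpr50Ca and Cpr76Bc, 2 of 18 against 4.51%. WT 1 was the highest library of all in 11 of the 18 genes, against 17.5% of all genes, WT 2 in 4 against 19.9% and M1BP RNAi 3 in 3 against 14.8%. Neither WT 3 nor M1BP RNAi 2 was the highest library in any of them (0 of 18), against 24.8% and 23.1% of all genes. M1BP RNAi 2 was the lowest library in 8 of 18 genes, against 28.8%, and WT 3 in 5, against 16.2%. WT 2 was the lowest in 3 genes, against 19.3%, WT 1 in 1, against 19.3%, and M1BP RNAi 3 in 1, against 16.5%. Within M1BP RNAi, replicate 3 was above replicate 2 in 15 of 18 genes, compared with 52.2% of all genes at that level. Genes counted in the same library are not independent, and these orders were noticed in the data, so they are given as a description.

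Neighbouring genes did not always share an order of libraries. Cpr76Bc and Cpr76Bd lie 5470 bases apart on the same strand of 3L with no gene between them, and both were among the 10 members with the highest mean. Cpr76Bc was lowest in WT 1 (614) and M1BP RNAi 3 (997), where Cpr76Bd was highest (16888 and 9499). In WT 2 the order was inverted, with 17003 for Cpr76Bc and 2283 for Cpr76Bd. The other genes of the cluster had few counts: Cpr76Bb, 525 bases from Cpr76Bc, had 40.5 in WT 2 and 1.06 to 2.95 elsewhere, and Cpr76Ba had its highest value, 135, in M1BP RNAi 3. Cpr76Bb was thus high in the library in which Cpr76Bc was highest.

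**Figure D5:**
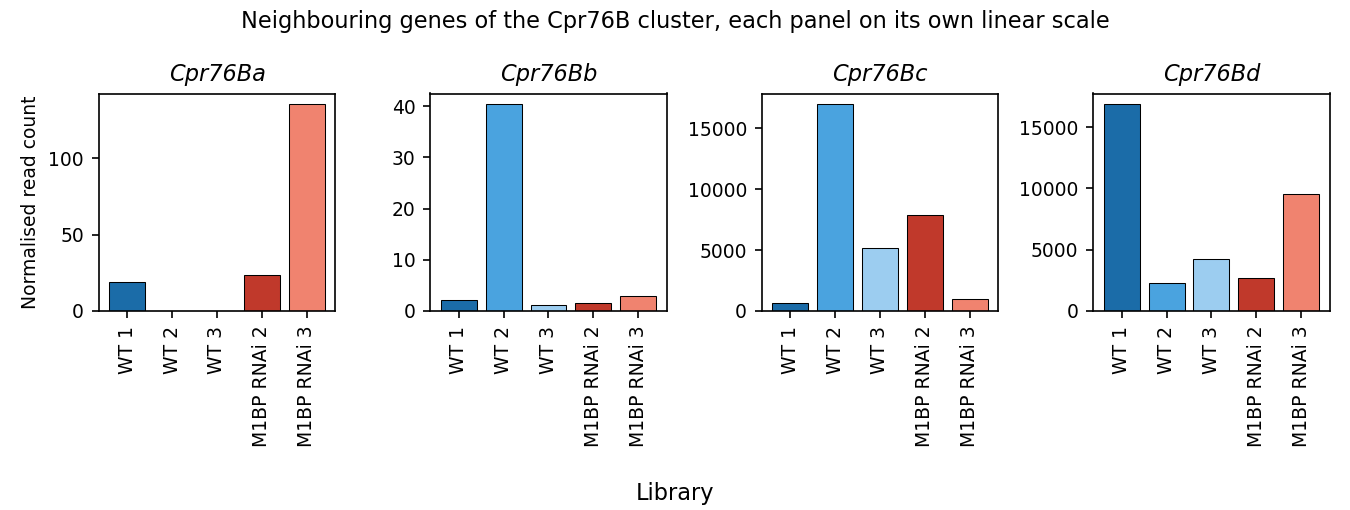
Normalised read counts of the 4 genes of the Cpr76B cluster on 3L, each bar 1 library (blue WT, red M1BP RNAi), with a linear scale from 0 in each panel. Cpr76Bc is high in WT 2 and M1BP RNAi 2 and low in WT 1 and M1BP RNAi 3, and Cpr76Bd shows the opposite order.

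In other clusters a well-counted gene stood beside genes with few counts. Cpr97Ea and Cpr97Eb, 1925 bases apart, were both well counted and shared their 2 highest libraries. Cpr64Aa, with a mean of 1072, lies 1701 bases from Cpr64Ab, with a mean of 2.86. Cpr62Bc, with a mean of 1179, lies 5116 bases from Cpr62Bb, with a mean of 29.6. Of the 8 Cpr49A genes, 5 were detected and only Cpr49Ah had a mean of at least 100. None of the 7 Cpr65A, 3 Cpr65E or 3 Cpr67F genes was detected. Cpr65Ax1 and Cpr65Ax2, and Cpr67Fa1 and Cpr67Fa2, are closely related copies, and since only uniquely aligned reads were counted, their counts are uncertain.

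By chromosome arm, 16 of 22 members on 2R, 16 of 35 on 3L, 13 of 32 on 3R, 3 of 6 on 2L and 2 of 8 on X were detected. Median exon length was 1240 bases in the 18 genes with a mean of at least 100 and 826.5 bases in the 24 without a count. Shared exon bases touched 6 members. Besides Cpr57A and Twdlalpha these were TwdlE, which shares 968 bases with lectin-28C on the opposite strand (mean 452 normalised counts, against 901 for TwdlE), Cpr47Ea with Or47a, Cpr67Fb with asRNA:CR45171, and Cpr73D. The last shares 294 bases with Nc73EF on the opposite strand, which had a mean of 60510 normalised counts while Cpr73D had 13.6. Whether counting used the strand was not given in the sources used here, so counts of these genes are uncertain.

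Summed over all 103 members, cuticle protein genes took 0.377% of counts in WT 1 (95% interval 0.375 to 0.378), 0.316% in WT 2 (0.314 to 0.318) and 0.139% in WT 3 (0.138 to 0.140). The share was 0.184% in M1BP RNAi 2 (0.183 to 0.185) and 0.243% in M1BP RNAi 3 (0.242 to 0.245). These exact binomial intervals cover counting error only, and they are narrow beside the differences between libraries of one group. In normalised counts the sums were 194280, 156763 and 79489 in WT and 77225 and 111129 in M1BP RNAi. The WT mean was 143510 ± 58532 (SD, n = 3) and the M1BP RNAi mean 94177 ± 23974 (SD, n = 2), a ratio of 0.656, while WT 1 was 2.44 times WT 3. The groups overlapped on both scales: WT 3 lay between the M1BP RNAi libraries in normalised counts and under both by share of counts. The Tweedle sum, nearly all TwdlT, had a wider range, with 35043, 37491 and 9129 in WT and 12322 and 25137 in M1BP RNAi.

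Cuticle protein genes with symbols outside the rule, which does not follow protein class, were counted rarely. Of 21 (larval Lcp, adult Acp, Edg and Pcp genes), 6 had at least 10 counts in a library and 8 had none in any library. Of the 5 that were tested, 0 passed in either direction, with a median log2 fold change of 0.07. Acp1, which encodes an adult cuticle protein, had 270, 83.3 and 1.06 in WT against 0 and 416 in M1BP RNAi, the same 2 high libraries as Cpr92F. Edg91, an ecdysone-dependent cuticle gene, had 146, 196 and 182 in WT and 86.2 and 212 in M1BP RNAi, a far narrower range than Acp1.

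Genes that make and shape chitin were counted in every library. Of these 16 genes, 10 differed at least 2 times between the highest and the lowest library, while the lowest such ratio among the 18 cuticle protein genes was 2.11. The chitin sum differed 2.09 times between libraries, and the cuticle protein sum 2.52 times. All 16 (among them the chitin synthase gene kkv) had a mean of at least 100, 3 fell and 0 rose, with a median log2 fold change of -0.61, while over all genes tested 2.98% passed as lower. Nesthocker (nst), whose product acts in the synthesis of the chitin precursor UDP-N-acetylglucosamine, had 8988, 9855 and 9795 in WT and 1574 and 1333 in M1BP RNAi, and fell by 2.71 on the log2 scale (DESeq2 adjusted p = 7.46e-113). Obstructor-A (obst-A), a chitin-binding scaffold protein, had 18540, 16598 and 12253 in WT and 7841 and 8152 in M1BP RNAi, and fell by 0.98 (adjusted p = 2.33e-05). Serpentine (serp), a chitin deacetylase, fell by 0.71 (adjusted p = 0.000293), and its relative vermiform (verm) had a log2 fold change of -0.68 (adjusted p = 0.00231) and was not called. None of these 3 calls was made by edgeR, with adjusted p of 0.00122, 0.0375 and 0.0529. With DESeq2, obst-A was not called without M1BP RNAi 2 (adjusted p = 0.0122) or M1BP RNAi 3 (0.00333), and serp was not called without WT 1, WT 2, M1BP RNAi 2 or M1BP RNAi 3 (adjusted p 0.00192 to 0.0993). The groups did not overlap in nst, obst-A, serp and verm, nor in 53.7% of all genes with a mean of at least 100.

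Of 13 apical matrix genes with a zona pellucida domain and 8 genes of cuticle tanning, 0 were called. The former had summed levels of 27158, 25459 and 23193 in WT, against 13702 and 21434 in M1BP RNAi. The tanning genes summed to 4005, 7267 and 5180 in WT and 3355 and 2307 in M1BP RNAi. Sums hide wide ranges of single genes in both lists. Among genes with a mean of at least 100, 7 of 12 zona pellucida genes and 4 of 5 tanning genes differed at least 2 times between the highest and the lowest library. Picked for their range, dy had 1905, 156 and 712 in WT and 796 and 210 in M1BP RNAi, and ple 322, 21.4 and 393 against 29.2 and 104.

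Markers of the cells that secrete cuticle were present in every library. The 6 epidermal markers (grh, vvl, shg, crb, sinu and Gli), all with a mean of at least 100, summed to 11426 to 14636 normalised counts in WT and 7717 to 11536 in M1BP RNAi. The 4 tendon markers (sr, Tsp, slow and Lrt) summed to 4509 to 5894 in WT and 3402 to 3570 in M1BP RNAi, and the 2 tracheal markers found (trh and btl) to 5055 to 5695 and 3097 to 4729. None of these 12 genes was at 0 in a library. Their sums differed 1.90, 1.73 and 1.84 times between the highest and the lowest library, and the sum over all 103 cuticle protein genes 2.52 times. The 7 fat body markers (Lsp1alpha, Lsp1beta, Lsp1gamma, Lsp2, Fbp1, Fbp2 and apolpp), all with a mean of at least 100, summed to 15425, 13296 and 7278 in WT and to 16774 and 16203 in M1BP RNAi. Each of these 7 genes was lowest in WT 3, the WT library with the lowest cuticle protein sum. Over all 5 libraries the cuticle protein sum in normalised counts was lowest in M1BP RNAi 2 (77225, against 79489 in WT 3), where the fat body sum was highest. By share of counts, WT 3 was lowest (0.139%, against 0.184% in M1BP RNAi 2). In normalised counts the epidermal (7717), tendon (3402) and tracheal (3097) sums were also lowest in M1BP RNAi 2. This was not particular to them: the flight muscle (1835560), neuron (1959), chitin (86920) and zona pellucida (13702) sums were lowest there too. Of all genes with a mean of at least 100, 28.8% were lowest in that library. The highest library of the epidermal, tendon and tracheal sums was WT 2, while that of the cuticle protein sum was WT 1. The part of epidermal, tendon, tracheal and fat body cells in the levels of cuticle protein genes was not tested, and in bulk samples fewer cells of a type and less RNA per cell cannot be told apart.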

How the data were processed

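RNA was sequenced from dissected flight muscle at 48 h APF, from 100 ng of total RNA per library with a stranded poly(A) kit. The deposited count table holds the authors' whole-number counts of uniquely aligned reads over the exons of each gene, with its exon length. The processing notes of the submitters name dm6, featureCounts (Subread 2.0.3) and DESeq2 1.3.0. The aligner, the annotation release and the strand setting were not given in the sources used here. A second deposited table, used only for gene symbols, holds the authors' mean signal, log2 fold changes and p-values, none of which was used. All 5 count columns were assigned to samples by name (0 unmapped), and 17493 identifiers were shared by both tables.

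Groups came from the sample titles. Counts were fitted in R 4.3.3 with DESeq2 1.42.0 (Wald test, default settings, all 5 libraries, no covariate), with Benjamini-Hochberg adjustment across 11282 genes. The call (adjusted p of at most 0.001, fold change of at least 1.5) follows the methods of the study. The 95% interval of a log2 fold change is 1.96 SE on each side. edgeR 4.0.16 (quasi-likelihood test, TMM, filterByExpr, 9833 genes) was an alternative, beside TMM scaling, filters on low counts and on Cook's distance, another threshold, no fold minimum, a replicate block and leaving out each library. One further setting, edgeR at an adjusted p of 0.05, was added after the data were seen. Scripts were tested on simulated data. Replicates of a group differed by more than sampling noise (chi-square per degree of freedom 91.8 to 128), so none was counted as a repeat.

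Genes named are M1BP, the 10 members with the highest mean, members called, the 5 with the largest ratio between libraries, the highest 3 of each family, and of the other lists genes called and the 2 with the highest mean, at most 4 per list. Values of the latter are given for the cuticle protein and chitin lists only. Others were named after their values were seen. The members and lists were chosen with earlier results of these data known. The lists of flight muscle, hemocyte, fat body and neuron markers had no called gene. Neighbours and overlaps were taken from the gene coordinates deposited with the counts. Gene types and the check of spans came from an Ensembl annotation of dm6. No sequences were analysed here.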

Additional observations from a re-analysis of the deposited data

How the results depend on the processing

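With 3 and 2 libraries per group, the spread between libraries sets what could be seen in cuticle protein genes. Depth limits only the genes with few counts: 79 members were detected at 1 count in a library and 32 at 1 CPM, against 50 at 10 counts. Cuticle protein genes called numbered 0 in DESeq2 and 0 in edgeR, also at an adjusted p of 0.05 in edgeR, and 0 to 2 on leaving out single libraries. In DESeq2 at an adjusted p of 0.05 the count was 1 lower (Cpr51A). All genes called numbered 762, 8 in edgeR, 1799 at the 0.05 threshold and 319 to 937 on leaving out 1 library, the lowest without M1BP RNAi 2; without WT 2 it was 491. M1BP kept its direction in all 11 alternatives, with adjusted p of 3.32e-05 to 0.443. The ratio of summed levels was 0.537 to 0.797 on leaving out 1 library and 0.770 in CPM.

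The replicate numbers were also fitted as a block. Over 10501 genes, deviations from the group mean in samples with the same number had r = -0.34 for number 2 and -0.088 for number 3. Genes are not independent, and with 2 M1BP RNAi libraries the deviations of one mirror those of the other. The check therefore cannot tell whether samples with the same number shared a batch. WT 1 has no M1BP RNAi library of its number, so under the block the group difference rested on replicates 2 and 3 alone. The replicate block gave 315 calls over all genes and 2 lower calls among cuticle protein genes, Cpr50Ca (log2 fold change -1.26) and Cpr76Bc (-1.74). Under the block the log2 fold change reversed to 0.70 in Cpr76Bd, 0.21 in Cpr100A, 0.0038 in Cpr49Ah, 0.14 in Cpr97Ea, 0.15 in Cpr64Ac, 1.13 in Cpr56F and -0.38 in Acp1.

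Leaving out single libraries moved log2 fold changes across 0 in 11 genes: from -1.53 to 0.89 in Cpr76Bd, -2.92 to 0.60 in Cpr76Bc, -0.81 to 0.25 in Cpr100A, -2.30 to 2.31 in Cpr92F, -0.74 to 0.093 in Cpr49Ah, -1.36 to 0.34 in Cpr97Ea, -3.45 to 0.49 in Cpr64Ac, -3.39 to 3.50 in Cpr92A, -1.45 to 1.56 in Ccp84Ag, -1.01 to 0.29 in Edg91 and -9.77 to 2.30 in Acp1. The cause was not tested. The 11 genes are among those whose fold change was followed across settings. Those were M1BP, the members named by the rules on mean, ratio and family, Edg91, Acp1, nst, obst-A, verm, serp, Mst84Da and ocn. Followed genes not listed in this section kept their direction in all settings run. Genes named after their values were seen, such as Cpr97Eb, Cpr62Bc, Cpr64Aa, Cpr30B and Cpr30F, were not followed.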
